A study of Mus musculus with 8 samples.

Results

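The genes described here encode the sarcomere, the contractile unit of striated muscle, and the proteins that couple the electrical signal of the muscle membrane to contraction. A list of 54 such genes was read in whole mouse spines, which carry the muscle that attaches to the vertebrae. The list was set by gene symbol, and it was chosen with earlier results of these data known. Of the 54 genes, 49 were matched to 71 probes of the array, and 45 of these passed the filter on dim probes, among 9608 genes tested. Myh2, Neb, Klhl41, Smpx and Cacna1s were not analysed here, and Lmod2, Myoz3, Myom2 and Trdn were too dim to be tested.

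Proteoglycan-induced spondylitis (PGISp) is a mouse model of ankylosing spondylitis in which mice are immunised with human cartilage extract. Spines of 4 PGISp mice and 4 Control mice were collected on day 84 after the first injection, 1 spine per array, and all 8 mice were BALB/c with an IL4 knockout. The PGISp mice were female, were first injected at 3 months of age on day 0 and again on days 21 and 42, and were chosen for severe peripheral arthritis. Disease in the spine itself was not scored before RNA extraction. The controls received no proteoglycan, and their sex is not given separately. Illumina MouseRef-8 arrays were used, and spines are named by array letter, with PGISp spines A, C, E and G and control spines B, D, F and H. The deposited values are log2 values that had been transformed and normalised across arrays, so all levels and differences below are on this log2 scale. The Y-linked gene Eif2s3y read 6.49 to 6.65 on the PGISp arrays, against 8.57 on control B, 8.33 on control F, 6.91 on control D and 6.63 on control H. The count of calls, the called members, Ckmt2, Mybpc1 and the slow and fast comparison are therefore also given without controls B and F.

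In the sarcomere, thick filaments of myosin pull on thin filaments of actin, which are anchored at the Z-disc, while titin spans from the Z-disc to the M-band. Calcium starts this movement. The ryanodine receptor releases it from the sarcoplasmic reticulum, troponin on the thin filament binds it, and pumps return it to the store. Slow fibres, which are rich in mitochondria and myoglobin, and fast fibres use different genes for many of these parts, and limb and trunk muscles mix both fibre types. Acta1, Ckm, Tnnt3 and Ryr1, which define skeletal muscle, were above background on all 8 arrays. Of 9 heart muscle markers on the array, Nppa, Nppb, Myl7, Tnni3, Mybpc3 and Pln were above background on 0 arrays and Ryr2 on 1. Actc1 and Myh6 were above background on all 8, and Myh6, the alpha heavy chain of heart muscle, read 7.11, 7.22, 7.04 and 7.37 in PGISp spines and 7.42, 7.48, 7.54 and 7.38 in control spines and was called lower (-0.27, adjusted p = 0.0749, limma).

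Of the 45 members tested, 6 were lower in PGISp spines, 1 was higher and 38 did not pass the test (limma, Benjamini-Hochberg adjusted p under 0.1 over all 9608 genes). Over all genes tested, 4.56% were called lower and 6.26% were called higher. The 6 that fell were Mb, Myl2, Tcap, Des, Trim54 and Tpm2, and the 1 that rose was Tpm3. The fitted difference was below zero for 43 of the 45 members and for 51.5% of all genes tested, and its median was -0.40, against a median of 0.00 over all genes tested. At an unadjusted p under 0.05, 20 members were lower, as were 10.9% of all genes tested. All 4 PGISp spines lay below all 4 controls for 3 members, while 5.67% of all genes tested did so. In a bulk spine sample, fewer muscle cells and less of these RNAs per muscle cell cannot be told apart.

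The spines of a group were far from uniform. Averaged over the 45 members, each centred on its own mean over 8 spines, PGISp spines A, C, E and G lay at -0.57, -0.18, -0.30 and 0.25. Control spines B, D, F and H lay at 0.31, -0.03, 0.42 and 0.11. PGISp G thus lay above controls D and H, and the groups overlapped, with a mean of -0.20 ± 0.34 in PGISp spines and 0.20 ± 0.20 in control spines (SD, n = 4 each). PGISp G read higher than control D for 34 of the 45 members and higher than control H for 29. PGISp A was the lowest of all spines for 36 members, and control B or control F was the highest for 29.

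**Figure D1:**
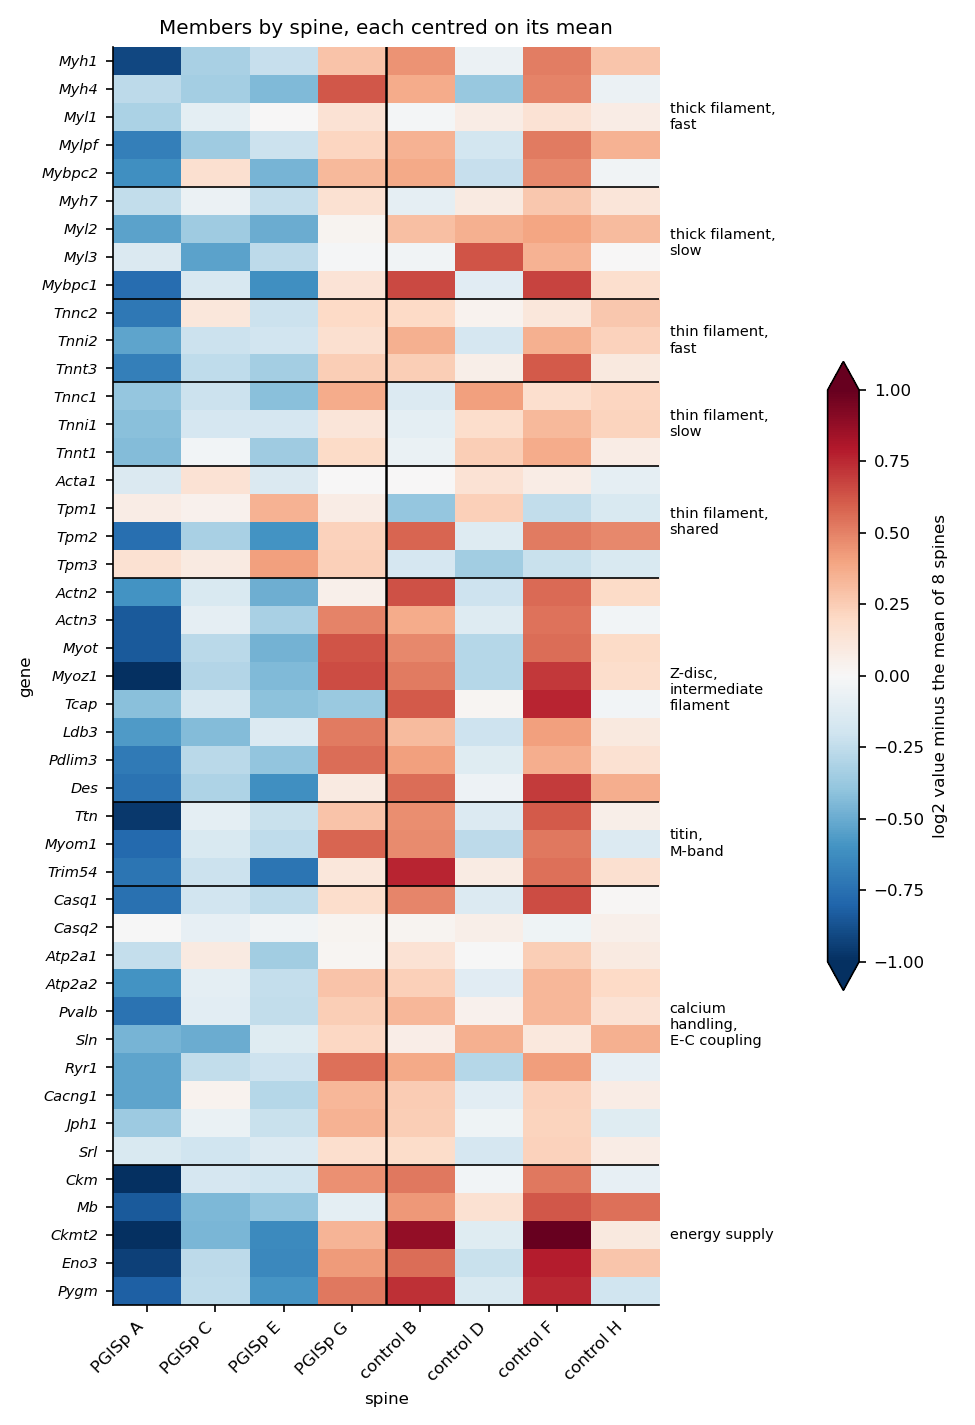
Heat map of the 45 members tested (rows, grouped by role) in the 4 PGISp spines (left) and the 4 control spines (right), coloured by the log2 value minus the mean of that gene over 8 spines. PGISp A is the lowest spine for 36 of 45 rows, PGISp G is higher than control D for 34, and Tpm1 and Tpm3 run the other way.

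The count of called members depended on these spines. Without PGISp G, 31 members were called lower, where 7.76% of all genes were. Without both controls B and F, 0 members were called lower by limma, 7 had an unadjusted p under 0.05, and 0.416% of all genes were called lower. Without controls B and F and PGISp G together, 7 members were called lower, where 1.44% of all genes were, and 4 of these were among the 6 above (Mb, Myl2, Des and Trim54). The mean difference of the members was -0.55 without PGISp G, -0.24 without controls B and F and -0.39 without all 3, so its direction was the same in each case.

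Some markers of other cell types also differed between the groups, where 6.26% of all genes tested were called higher and 4.56% lower. Of 12 neutrophil markers, 9 were higher in PGISp spines, and their centred mean was 0.18 to 0.41 in PGISp spines and -0.40 to -0.22 in control spines. Of 10 bone and fibroblast markers, 6 were higher, with a centred mean of -0.01 to 0.86 in PGISp spines and -0.47 to -0.18 in control spines. Both lists were lowest, among PGISp spines, in PGISp G, the PGISp spine in which the muscle members were highest. On all 8 arrays, 11 of the 12 neutrophil markers and all 10 bone and fibroblast markers were above background. The 6 adipocyte markers measured had a median difference of -0.29 and a lowest adjusted p of 0.112 (Plin1, limma), and their centred mean was -0.35 to 0.15 in PGISp spines and 0.05 to 0.29 in control spines. Of 4 erythroid and 3 peripheral nerve markers measured, 0 were called (lowest adjusted p 0.125 and 0.538, limma). Of 5 smooth muscle markers measured, only Des, itself a member, was called, and Smtn, Acta2, Myh11 and Mylk differed by -0.26, -0.09, -0.04 and -0.02. The part of these cell types in the muscle result was not tested.

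Myoglobin, the oxygen-binding protein of slow and oxidative fibres, showed the largest change among the called members. Mb read 12.00, 12.39, 12.45 and 12.74 in PGISp spines A, C, E and G, against 13.27, 12.99, 13.46 and 13.39 in control spines B, D, F and H. Every PGISp spine was below every control spine. The difference was -0.88 ± 0.15 (SE), or 1.84-fold lower (adjusted p = 0.0114, limma). A second, dimmer Mb probe read 10.42, 10.65, 11.02 and 11.30 in PGISp spines and 12.02, 11.35, 12.07 and 11.80 in control spines, again without overlap and with a difference of -0.96.

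Myl2 encodes the regulatory myosin light chain of slow and cardiac muscle. It read 11.34, 11.52, 11.38 and 11.90 in PGISp spines, against 12.18, 12.23, 12.27 and 12.19 in control spines. The 4 controls lay within a very narrow range (SD 0.04), and all PGISp spines were below it. Myl2 was 1.60-fold lower, with a difference of -0.68 ± 0.11 (SE, adjusted p = 0.00912, limma).

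Tcap, or telethonin, caps the end of titin at the Z-disc. PGISp spines A, C, E and G read 11.63, 11.89, 11.64 and 11.68 for Tcap, against 12.66, 12.07, 12.81 and 12.02 in control spines B, D, F and H. The groups did not overlap, and the control spines formed a high pair, B and F, and a lower pair, D and H. Tcap was lower by a difference of -0.68 ± 0.17 (SE, adjusted p = 0.0466, limma).

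Des, Trim54 and Tpm2 were also called lower, but in each of them PGISp G lay above control D. Desmin, the intermediate filament that links Z-discs to each other, read 10.18, 10.61, 10.31 and 11.01 in PGISp spines, against 11.48, 10.87, 11.62 and 11.28 in control spines (difference -0.78 ± 0.20, SE, adjusted p = 0.0463, limma). Trim54, or MuRF3, is a muscle ubiquitin ligase of the family that binds titin at the M-band. It read 7.58, 8.09, 7.58 and 8.42 in PGISp spines and 9.07, 8.39, 8.86 and 8.47 in control spines (difference -0.78 ± 0.21, SE, adjusted p = 0.0577, limma). Tpm2, the beta-tropomyosin that lies along the thin filament, read 11.80, 12.23, 11.95 and 12.78 in PGISp spines, against 13.13, 12.42, 13.07 and 13.03 in control spines (difference -0.72 ± 0.22, SE, adjusted p = 0.0833, limma). All 3 Tpm2 probes were called lower, at differences of -0.72, -0.86 and -0.70. Without PGISp A, or without control B, control F or PGISp E, Des, Trim54 and Tpm2 were no longer called, and without control B, control F or PGISp E Tcap was not called either.

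Tpm3 was the only member called higher. The gene encodes the slow-muscle tropomyosin and, from other transcripts, cytoplasmic tropomyosins found in most cells. Its brightest probe read 9.55, 9.49, 9.81 and 9.64 in PGISp spines, against 9.23, 9.05, 9.18 and 9.25 in control spines, without overlap (difference 0.44 ± 0.08, SE, adjusted p = 0.0139, limma). The other 3 Tpm3 probes differed in the opposite direction, by -0.33, -0.26 and -0.29, and none of these passed the test. The direction of Tpm3 therefore rests on 1 of its 4 probes, and which transcripts each probe reads was not examined. Tpm1, another tropomyosin gene used by muscle and by other cells, read 10.41, 10.38, 10.68 and 10.41 in PGISp spines and 9.95, 10.57, 10.09 and 10.18 in control spines, with a difference of 0.27 that was not called (adjusted p = 0.234, limma).

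Without both controls B and F, none of these 7 genes was called. Myl2 then differed by -0.68 (adjusted p = 0.116), Mb by -0.79 (adjusted p = 0.137) and Tpm3 by 0.47 (adjusted p = 0.122), close to their values with all 8 spines (limma). Tcap differed by -0.33, Des by -0.55, Trim54 by -0.51 and Tpm2 by -0.53, each smaller than with all 8 spines.

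**Figure D2:**
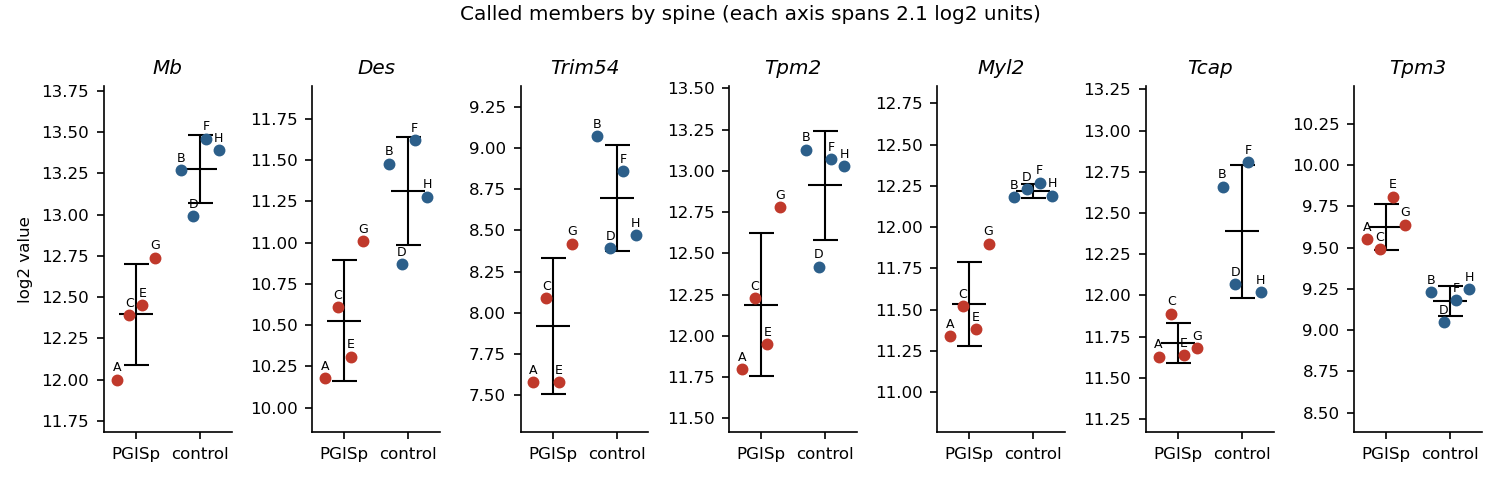
Log2 values of the 7 called members in each spine (letters), PGISp left of control, with the mean and SD of 4 spines and every axis spanning the same range. Mb, Myl2, Tcap and Tpm3 have no overlap between the groups, while PGISp G lies above control D for Des, Trim54 and Tpm2.

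The bases upstream of these genes were read for a shared motif, since muscle regulators of the MyoD family bind E-boxes (CANNTG) and favour the form CAGCTG, which reads the same on both strands. Within 250 bases before an annotated transcript start (RefSeq, GRCm38.p6), CAGCTG was present in 47.6% of 42 windows of the members and in 13% of 32851 windows of all genes. The general form CANNTG, which includes CAGCTG, was present in 88.1% of windows of the members and in 66.2% of all windows. Of the 6 genes called lower, 5 had a window in the table, and all 5 had CAGCTG in at least 1 window, as did 18 of the 34 members with a window. Of the same 5 genes, 1 had CATTCC and 0 had the MEF2 motif or the CArG box. The MEF2 motif was present in 11.9% of member windows and 2.92% of all windows, the CArG box in 14.3% and 1.47%, and CATTCC, searched on both strands, in 28.6% and 12.6%. The windows of the called genes are shown as 60 bases around the site, with CAGCTG in capitals. Myl2, Mb and Tpm3 have several annotated starts, and the stretch shown was taken because it holds the motif.
Myl2 (chr5:122093032-122093091, plus strand): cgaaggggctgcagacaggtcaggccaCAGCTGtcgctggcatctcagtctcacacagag
Mb (chr15:77022888-77022947, minus strand): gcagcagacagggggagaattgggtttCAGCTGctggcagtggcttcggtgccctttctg
Des (chr1:75360229-75360288, plus strand): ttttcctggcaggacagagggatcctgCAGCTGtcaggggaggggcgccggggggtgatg
Trim54 (chr5:31116472-31116531, plus strand): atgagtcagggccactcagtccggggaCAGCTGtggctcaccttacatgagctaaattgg
Tpm2 (chr4:43523745-43523804, minus strand): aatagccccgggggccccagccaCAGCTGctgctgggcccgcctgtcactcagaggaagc
Tpm3 (chr3:90072449-90072508, plus strand): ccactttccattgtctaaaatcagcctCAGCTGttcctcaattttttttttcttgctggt

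The first base of the motif lay 36 bases before the start of Des, 113 before Trim54, 130 before Myl2, 133 before Mb, 175 before Tpm3 and 227 before Tpm2. The motif was present both in the genes that fell and in Tpm3, the gene that rose on 1 probe. These letters are a description of the windows and do not show that a factor bound there.

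Among the thick filament members, 1 of 9 fell, Myl2 of the slow set, where 4.56% of all genes tested were called lower. All 4 slow members had differences below zero, with a median of -0.58, against a median of -0.30 for the 5 fast members. Mybpc1, the slow myosin-binding protein C, read 9.26, 9.86, 9.41 and 10.16 in PGISp spines and 10.68, 9.91, 10.70 and 10.19 in control spines, a difference of -0.70 that missed the threshold (adjusted p = 0.104, limma) and was -0.37 without controls B and F. Myl3, the essential light chain of slow muscle, read 10.66, 10.27, 10.54 and 10.79 in PGISp spines and 10.77, 11.43, 11.15 and 10.81 in control spines, and it too missed the threshold (difference -0.48, adjusted p = 0.106). For both genes the groups overlapped by a single PGISp spine, G, although for Myl3 the overlap was only with control B. Myh7, the slow myosin heavy chain, was dim at 6.89, 7.08, 6.90 and 7.29 in PGISp spines and 7.05, 7.23, 7.41 and 7.26 in control spines. Averaged over the 4 slow thick filament members, every PGISp spine lay below every control spine, at -0.42, -0.28, -0.40 and 0.08 in PGISp spines and 0.21, 0.24, 0.42 and 0.15 in control spines. Relative to the mean of all members the same values overlapped, at 0.15, -0.09, -0.10 and -0.18 in PGISp spines and -0.10, 0.28, 0.01 and 0.04 in control spines, a difference of -0.11.

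Of the 5 fast thick filament members, 0 were called by limma, and 2 had an unadjusted p under 0.05. Over all genes tested, 4.56% were called lower and 10.9% were lower at that unadjusted p. Myh1, the fast heavy chain of type IIx fibres, read 10.33, 10.92, 11.01 and 11.53 in PGISp spines, against 11.69, 11.18, 11.75 and 11.52 in control spines (difference -0.59 ± 0.22, SE). Myh4, the heavy chain of the fastest type IIb fibres, read 11.23, 11.15, 11.05 and 12.11 in PGISp spines and 11.86, 11.11, 11.99 and 11.43 in control spines. Its highest value of all was in PGISp G, and its difference was -0.21 ± 0.25 (SE). Mybpc2, the fast myosin-binding protein C, read 10.85, 11.62, 11.00 and 11.79 in PGISp spines and 11.84, 11.23, 11.94 and 11.43 in control spines, and its difference was -0.30.

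The light chains of fast muscle were close to the upper limit of the scale. Mylpf, the fast regulatory light chain, read 12.89, 13.22, 13.36 and 13.79 in PGISp spines and 13.92, 13.39, 14.09 and 13.92 in control spines. Myl1, the fast essential light chain, read 14.02, 14.24, 14.34 and 14.48 in PGISp spines and 14.32, 14.41, 14.48 and 14.41 in control spines on its brightest probe. The highest value on every array was 14.48, and exactly 12 probes lay above 14 on every array, because normalisation gave all arrays the same set of values. On its dimmer probe Myl1 read 9.56, 9.91, 10.03 and 10.57 in PGISp spines, against 10.98, 10.32, 11.28 and 10.82 in control spines. The difference was -0.13 on the bright probe and -0.83 on the dim one, and the dim probe was called lower when every probe was tested (adjusted p = 0.0660, limma). In that test, 11 of 63 member probes were called lower and 1 was called higher, where 4.36% of all probes were called lower. The 11 were 3 probes of Tpm2, 2 of Mb and 1 each of Myl1, Myl2, Tcap, Des, Trim54 and Ckmt2. In all, 7 members had a mean above 13 (Acta1, Myl1, Tnnc2, Atp2a1, Pvalb, Tnni2 and Mylpf), and none of the 7 was called on its brightest probe.

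**Figure D3:**
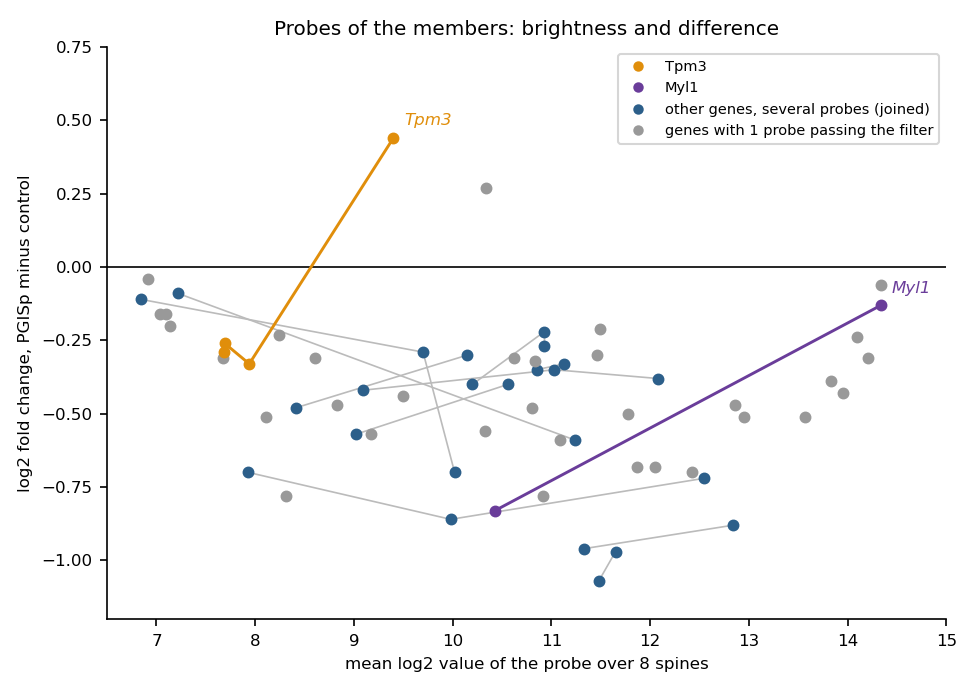
Log2 difference (PGISp minus control) of the 63 member probes that passed the filter against their mean log2 value over 8 spines, with probes of the same gene joined. Myl1 differs by -0.13 on its probe near the top of the scale and by -0.83 on its dimmer one, and only the brightest Tpm3 probe and the Tpm1 probe lie above zero.

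The troponins, which bind calcium and move tropomyosin off the myosin sites, differed by similar amounts in their fast and slow forms. In the fast set, Tnnc2, the calcium-binding subunit, read 13.49, 14.32, 13.99 and 14.41 in PGISp spines and 14.41, 14.24, 14.32 and 14.48 in control spines. Tnni2, the inhibitory subunit, read 13.30, 13.62, 13.64 and 13.99 in PGISp spines and 14.19, 13.66, 14.19 and 14.06 in control spines. Tnnt3, the tropomyosin-binding subunit, read 12.27, 12.70, 12.61 and 13.20 in PGISp spines and 13.20, 13.01, 13.56 and 13.05 in control spines. PGISp A was the lowest spine for all 3, and their differences were -0.31 to -0.51.

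In the slow set, Tnnc1 read 10.44, 10.61, 10.41 and 11.20 in PGISp spines and 10.69, 11.24, 11.00 and 11.04 in control spines. Tnni1 read 7.25, 7.50, 7.50 and 7.79 in PGISp spines and 7.57, 7.84, 7.99 and 7.89 in control spines. Tnnt1 read 10.18, 10.59, 10.26 and 10.81 in PGISp spines and 10.55, 10.86, 10.99 and 10.69 in control spines. Here the low control was B rather than D, and PGISp G lay below control D for all 3 genes. Their differences were -0.31 to -0.32, and 0 of the 6 troponins were called by limma, with 3 at an unadjusted p under 0.05. The shares of all genes tested were 4.56% called lower and 10.9% lower at that unadjusted p.

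Taking slow against fast isoforms, the 7 slow contractile members were averaged per spine and the average of the 8 fast ones was subtracted. The result was 0.17, -0.05, -0.10 and -0.13 in PGISp spines A, C, E and G, and -0.21, 0.36, -0.04 and 0.01 in control spines B, D, F and H. The groups overlapped throughout, with a mean of -0.03 ± 0.14 in PGISp spines and 0.03 ± 0.24 in control spines (SD, n = 4 each). The difference of -0.06 was smaller than either SD, and it turned to 0.05 without control D, while it was -0.22 without both controls B and F. Myl1, Mylpf, Tnnc2 and Tnni2 of the fast set lay close to the top of the scale, where a difference can be understated. The difference was -0.03 without members with a mean above 13, a choice made after seeing the data. It was -0.10 with the filter 0.5 above the array median, which drops the dim slow member Myh7. The slow members alone differed by -0.43 and the fast members alone by -0.37, with overlap in both. Control D stood out as the spine in which slow isoforms were highest relative to fast ones, and control B as that in which they were lowest.

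Of 9 slow and fast pairs, each read from the brightest probe of a gene, 1 separated the groups. How often other pairs of genes do so was not examined. Mybpc1 minus Mybpc2, each centred, was -0.15, -0.32, -0.15 and -0.19 in PGISp spines, against 0.28, 0.11, 0.20 and 0.20 in control spines, a difference of -0.40. Mybpc1 has 2 further probes, which differed by -0.29 and -0.11, where its brightest probe differed by -0.70. Mybpc2 differed by -0.30, so the size and sign of this pair depend on the Mybpc1 probe. The other 8 pairs overlapped, with differences of -0.35 for the essential light chains (Myl3 minus Myl1) to 0.46 for the calsequestrins (Casq2 minus Casq1). The light chain value used the Myl1 probe near the top of the scale, which differed by -0.13. The dimmer Myl1 probe differed by -0.83 and Myl3 by -0.48, so the sign of this pair depends on the Myl1 probe. Casq2 was close to background and differed by -0.04, against -0.51 for Casq1. The heavy chains (Myh7 minus Myh4) differed by 0.01, and the pairs of troponin C, I and T by -0.01, 0.08 and 0.20.

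**Figure D4:**
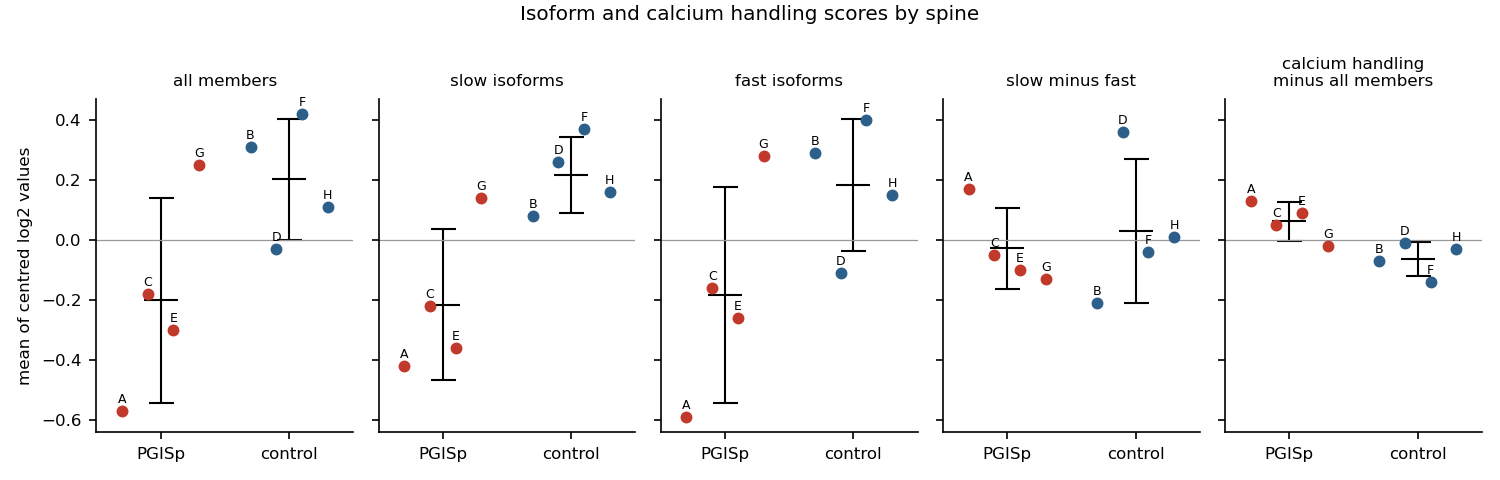
Mean of centred log2 values per spine (letters) for all members, the 7 slow isoforms, the 8 fast isoforms, slow minus fast, and the calcium handling members minus all members, PGISp left of control, with the mean and SD of 4 spines. Slow minus fast overlaps fully between the groups (-0.03 against 0.03), and calcium handling minus all members is 0.06 in PGISp spines and -0.06 in control spines.

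The calcium handling members had a smaller median difference than the members as a whole, at -0.23 against -0.40 over the 45 members. Of the 10 measured, 0 were called by limma and 4 were lower at an unadjusted p under 0.05. Over all genes tested, 4.56% were called lower and 10.9% were lower at that unadjusted p. Relative to the mean of all members, they lay at 0.13, 0.05, 0.09 and -0.02 in PGISp spines and -0.07, -0.01, -0.14 and -0.03 in control spines. The difference was 0.13, and the groups overlapped by PGISp G and control D. Atp2a1 and Pvalb lay close to the top of the scale and Casq2, Jph1 and Srl close to background. With the filter 0.5 above the array median, which drops Casq2, Jph1 and Srl, the difference was 0.09. Without members with a mean above 13, Atp2a1 and Pvalb among them, it was 0.16, a choice made after seeing the data. The cause of the difference was not tested.

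Among the proteins that release calcium, Ryr1, the release channel, read 10.40, 10.68, 10.72 and 11.48 in PGISp spines and 11.31, 10.64, 11.35 and 10.85 in control spines. Jph1, which ties the surface membrane to the store, read 6.74, 7.04, 6.88 and 7.45 in PGISp spines and 7.35, 7.06, 7.33 and 6.98 in control spines. Cacng1, a subunit of the voltage sensor, read 7.71, 8.27, 7.95 and 8.57 in PGISp spines and 8.49, 8.13, 8.47 and 8.31 in control spines. In all 3 genes PGISp G was the highest of the 8 spines, and the differences were -0.22, -0.16 and -0.23.

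Proteins that take calcium back into the store formed the next set. Atp2a1, the calcium pump of fast fibres, read 13.86, 14.19, 13.75 and 14.12 in PGISp spines and 14.24, 14.09, 14.34 and 14.19 in control spines. Atp2a2, the pump of slow and cardiac muscle, read 10.53, 11.03, 10.89 and 11.42 in PGISp spines and 11.37, 11.02, 11.46 and 11.33 in control spines. The pumps differed by -0.24 and -0.33. Sln, the small peptide that inhibits the pumps, read 9.04, 9.01, 9.38 and 9.71 in PGISp spines and 9.57, 9.86, 9.61 and 9.86 in control spines. Its difference of -0.44 had an adjusted p of 0.113 (limma), and only PGISp G reached the controls.

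Casq1, the calcium-binding protein of the store in fast fibres, read 7.36, 7.91, 7.85 and 8.28 in PGISp spines and 8.59, 7.97, 8.76 and 8.12 in control spines. Casq2, the slow and cardiac form, read 6.83 to 6.94 in PGISp spines and 6.87 to 6.97 in control spines, close to background on every array. Pvalb, or parvalbumin, is the calcium buffer of fast fibres and read 13.21, 13.84, 13.70 and 14.19 in PGISp spines, against 14.28, 13.99, 14.28 and 14.09 in control spines. Casq1 and Pvalb differed by -0.51 and -0.43, while Casq2 differed by -0.04. Srl, a calcium-binding protein of the store membrane, read 6.89, 6.84, 6.90 and 7.21 in PGISp spines and 7.22, 6.87, 7.27 and 7.11 in control spines, and PGISp G again stood with controls B and F.

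At the Z-disc, 2 of the 8 measured members fell, Tcap and Des, where 4.56% of all genes tested were called lower. The other 6 had differences of -0.31 to -0.59. Actn2, the alpha-actinin that crosslinks thin filaments in all fibres, had the largest of these (-0.59, adjusted p = 0.111, limma). Actn3, the alpha-actinin of fast fibres, differed by -0.38, -0.35 and -0.42 on its 3 probes. Myot, Myoz1, Ldb3 and Pdlim3, which bind alpha-actinin, ranged from -0.31 to -0.56, and in all 4 PGISp G was above controls D and H. Ttn, the giant spring protein titin, differed by -0.50 and Myom1, or myomesin, which crosslinks thick filaments at the M-band, by -0.30. Neither was called. Acta1, the actin of the thin filament, read 14.19 to 14.48 in PGISp spines and 14.24 to 14.48 in control spines, at the top of the scale.

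Energy supply members had the largest median difference of the 9 roles, at -0.70. Ckmt2, the mitochondrial creatine kinase of striated muscle, read 10.46, 11.20, 11.02 and 11.99 in PGISp spines and 12.53, 11.53, 12.75 and 11.75 in control spines. Its difference of -0.97 was the largest of all members over the 8 spines, but the spines of both groups spread widely and it was not called (SE 0.34, adjusted p = 0.124, limma). Without controls B and F the difference of Ckmt2 was -0.47, smaller than that of Mb (-0.79) and Myl2 (-0.68). The second Ckmt2 probe, with a difference of -1.07, was called when every probe was tested (adjusted p = 0.0581). Ckm, the cytosolic creatine kinase, Eno3, the muscle enolase, and Pygm, the muscle glycogen phosphorylase, differed by -0.47, -0.70 and -0.57, and none was called. For all 5 members of this role, Mb included, PGISp A was the lowest spine and control B or F the highest.

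**Figure D5:**
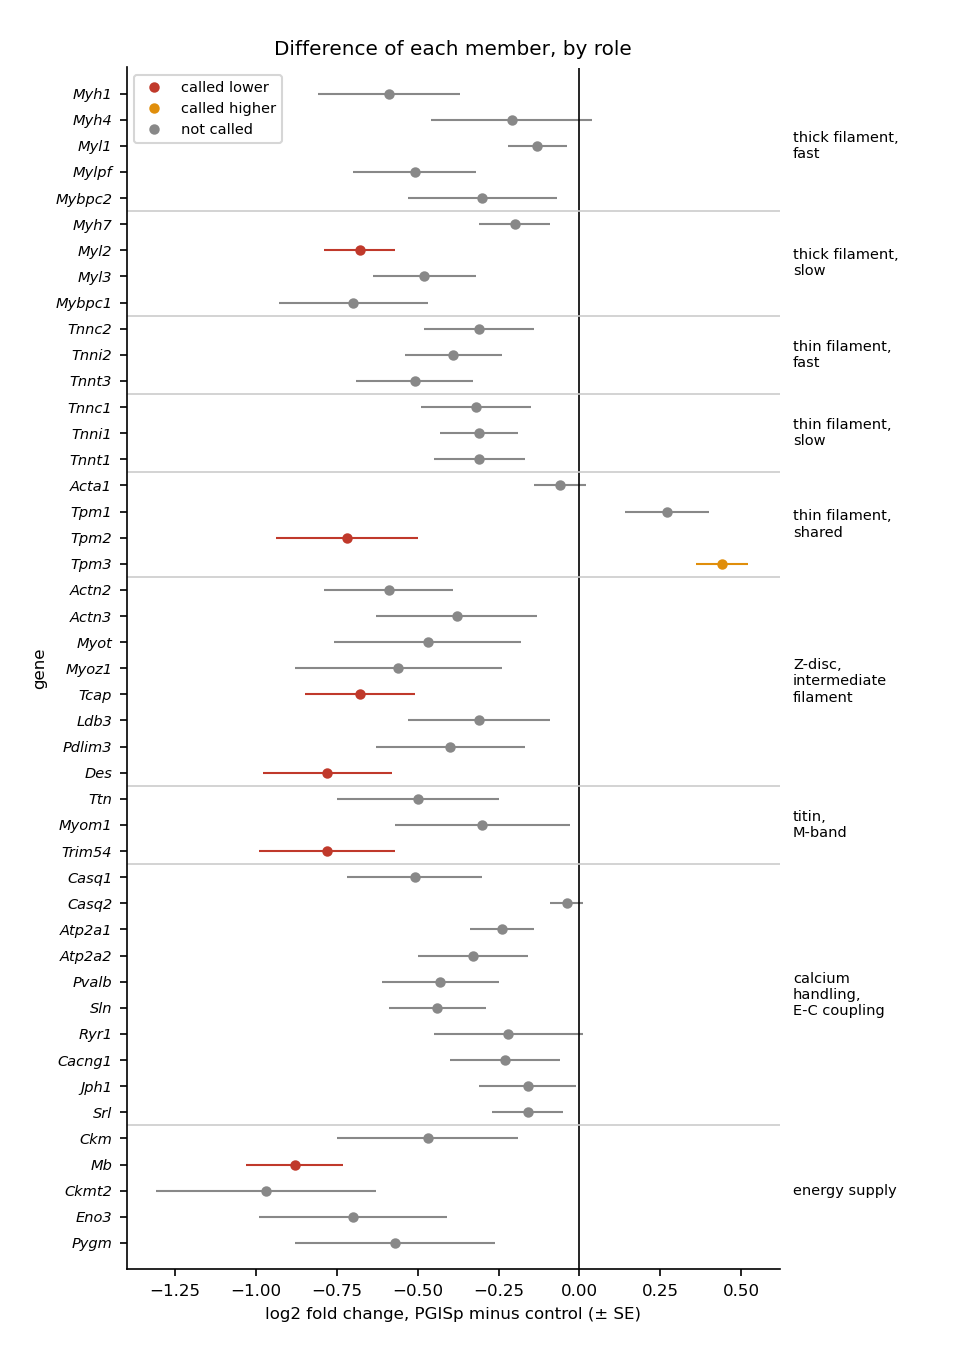
Log2 difference (PGISp minus control, with SE) of each member tested, grouped by role, with called members in colour. Differences lie below zero for 43 of 45 members, and the 6 called lower are spread over 5 roles. Of the 10 calcium handling members 0 are called, where 4.56% of all genes tested were called lower.

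To compare members at an equal overall level of muscle RNA, the mean of the members per spine was added to the fit, a mean to which each member itself contributes. In this fit 4 members were called, where 3.01% of all genes were called in either direction. Mb and Myl2 stayed lower, by -0.55 (adjusted p = 0.0514) and -0.46 (adjusted p = 0.0634). Tpm3 was higher by 0.48 (adjusted p = 0.0704) and Myom1 by 0.39 (adjusted p = 0.0786). Des, Trim54, Tpm2 and Tcap were not called in this fit. Without the member mean in the fit, Myom1 differed by -0.30 and -0.48 on its probes. With the mean of the probes of a gene, Myom1 at a given member mean differed by 0.29 and was not called (adjusted p = 0.201, limma). After the member mean of each spine was subtracted, centred Mb lay at -0.26, -0.26, -0.09 and -0.35 in PGISp spines and 0.12, 0.19, 0.21 and 0.44 in control spines, with no overlap. The same value for Myl2 was 0.04, -0.17, -0.19 and -0.23 in PGISp spines and -0.01, 0.39, -0.03 and 0.20 in control spines, which overlapped by PGISp A. On this relative scale Des (-0.38) and Trim54 (-0.38) were also lower in every PGISp spine than in every control. Tpm3 (0.85), Cacng1 (0.18) and Jph1 (0.25) were higher on this scale in every PGISp spine than in every control. Before the subtraction they differed by 0.44, -0.23 and -0.16. Jph1 was close to background, and Tpm3 was read from its brightest probe only. How often other genes separate the groups on this scale was not examined. This fit had 5 residual degrees of freedom. Without PGISp G, control D or control F, 0 members were called by limma (10, 13 and 10 had an unadjusted p under 0.05). With no spine left out, 12 members and 1333 of all 9608 genes were at that level. The matching counts over all genes without these spines are not given.

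Other muscle genes outside the list were read in the same way. Over all genes tested, 4.56% were called lower and 6.26% were called higher. Of 15 other sarcomere genes measured, 4 were lower and 0 were higher, namely Myoz2 (-0.86, adjusted p = 0.0161), Fhl1 (-0.67), Xirp1 (-0.40) and Synpo2l (-0.25). Myoz2 is the calsarcin of slow and cardiac muscle, and it read 8.60, 8.92, 8.96 and 9.46 in PGISp spines, against 9.94, 9.59, 9.86 and 9.97 in control spines, without overlap. Of 15 other excitation-contraction genes, 1 was lower, near the share over all genes. It was Jsrp1 (-0.38), a protein of the store membrane. Of 16 other muscle energy genes, 5 were lower. These were Fabp3, the fatty acid carrier of heart and slow muscle (-0.99), Cox7a1 (-0.83) and Cox8b (-0.51), which are muscle forms of cytochrome oxidase subunits, Pgam2 (-0.56), a glycolytic enzyme, and Adssl1 (-0.46), an enzyme of the purine cycle. Cox8b read 12.02, 11.84, 12.03 and 12.17 in PGISp spines and 12.64, 12.36, 12.61 and 12.50 in control spines, and Cox7a1 read 10.49, 10.42, 10.87 and 11.15 in PGISp spines and 11.77, 11.26, 11.76 and 11.47 in control spines. In both genes every PGISp spine lay below every control. Among 7 measured myogenic regulators and satellite cell genes, the median difference was -0.03 and the lowest adjusted p was 0.153, for Mef2c (limma).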

How the data were processed

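Whole spines of 4 PGISp and 4 Control mice were measured on Illumina MouseRef-8 arrays. The authors processed the bead signals (BeadStudio, per the labels). The paper states a variance stabilization transform and robust spline normalisation in lumi. Whether the deposited values come from exactly these steps was not checked. The deposited log2 values were used as given. Once sorted, the values of the 8 arrays differed by no more than 0.005, so a change in the total of the brightest probes cannot be seen. A table of raw signals was not used, because the names of its 8 signal and 8 detection columns match no sample.

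A probe was tested if its mean over the 8 arrays exceeded the array median of 6.77 (12492 of 25695 probes), and the brightest probe stood for its gene. Background was the 95th percentile of 1303 receptor probes on each array (6.73 to 6.80). Groups were compared with limma 3.58.1 (R 4.3.3) over 9608 genes, at a Benjamini-Hochberg adjusted p under 0.1, without covariates and then with the mean of the members. Scores are means of values centred per gene, with no test. All members could be named, and per-spine values are given for isoform pairs, calcium handling members and called members. Members, lists and alternatives were chosen with earlier results of these data known. Fits were tested on simulated data. The number of arrays limits the precision. Upstream sequences are from RefSeq (GRCm38.p6). Alternatives covered the filter, probe, variance model, weights, array position, scaling, threshold, the methods' t-test and left-out spines.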

Additional observations from a re-analysis of the deposited data

Results flagged for a closer look

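Among 96 groups of 4 values examined, 3 had a spine far from the other 3, and chance flags about 1 in 20 groups. Tpm1 read 10.68 in PGISp E, against 10.38 to 10.41 in the other PGISp spines. Tpm2 read 12.42 in control D, against 13.03 to 13.13 in the other controls, and PGISp G lay above this spine. Srl read 7.21 in PGISp G, against 6.84 to 6.90 in the other PGISp spines.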

How the results depend on the processing

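The count of members called lower was 6, where 4.56% of all genes were, and depended on the setting. It was 14 with the filter 0.5 above the array median (7.85% of all genes) and 14 with a variance trend (5.16%). By the methods' t-test it was 2 (Mb and Myl2, with Benjamini-Hochberg adjustment), where 1.59% of all genes were called lower. It was 0 without both control B and F (0.416% of all genes), with 7 members at an unadjusted p under 0.05 by limma. Without both control D and H it was 10 (3.04%). When 1 spine was left out it was 2 to 31. The count was 2 without control B (2.41%), without control F (1.48%) or without PGISp E (2.33%). It was 3 without PGISp A (3.45%), 11 without control D (4.93%) and 31 without PGISp G (7.76%). Mb and Myl2 stayed called under 22 of 23 alternatives each, and both were lost without controls B and F. Without controls B and F and PGISp G together, 7 members were called lower (1.44% of all genes), with Myl2 at -0.80 (adjusted p = 0.0185) and Mb at -0.91 (adjusted p = 0.0618, limma). Tcap stayed called under 17, Des under 17, Trim54 under 15 and Tpm2 under 10. In none of these did the direction change. Tpm3 turned to -0.11 with the mean of the probes of a gene and to -0.29 with the dimmest probe (-0.09 at a given member mean), settings that use its other probes.

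The count of members called at a given member mean was 4, where 289 of all 9608 genes were called. It was 1 with a variance trend (210 of all genes) and 10 with array weights (790). It was 0 at an adjusted p under 0.05 (83), 0 without both control B and F (77) and 0 without both control D and H (10). With the dimmest probe of a gene, a choice made after seeing the data, the count was 0 (118). When 1 spine was left out it was 0 to 5 (13 to 283). In the settings with 0, limma gave 9 to 13 members at an unadjusted p under 0.05. With no setting changed, 12 members and 1333 of all genes were at that level. Where spines were left out or the dimmest probe was used, the matching counts over all genes are not given. Slow minus fast isoforms, -0.06, was 0.10 without both control D and H, 0.05 with the dimmest probe, and -0.14 to 0.05 when 1 spine was left out. The mean of all members ranged from -0.57 to -0.24 and calcium handling relative to it from 0.08 to 0.17, with no change of direction under any alternative run. The cause of these changes was not tested. No paired analysis was possible because the labels give the spines no replicate numbers that could pair them.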
